A study of Mus musculus with 6 samples.

Results

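The RANKL axis and the osteoclast genes were examined in mouse bone marrow mesenchymal stem cell (BMMSC) cultures after knockdown of Tet1 and Tet2. The set was chosen by gene symbol and holds 10 of the 36870 symbols of the deposited expression table: Tnfsf11, Tnfrsf11a, Tnfrsf11b, Nfatc1, Acp5, Ctsk, Oscar, Dcstamp, Ocstamp and Itgb3. All 10 were found, each in 1 row. BMMSCs are the cells of flushed marrow that stick to plastic, here from C57BL/6 mice and at passage 2 by the sample labels (the methods give passage 1). RNA-seq was performed on 3 control libraries, from cells given a non-targeting siRNA by the labels and vehicle by the sequencing methods, and on 3 libraries from cells given siRNAs against both Tet1 and Tet2. The siRNAs act transiently on a whole, unsorted culture. Neither source says whether the 3 libraries of a group came from separate cultures or animals, so the p-values measure the spread between these libraries.

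Bone is broken down by osteoclasts, which form when cells of the macrophage lineage fuse. Stromal and osteoblast-lineage cells supply the signal: RANKL, encoded by Tnfsf11, binds its receptor RANK (Tnfrsf11a) on the macrophage-lineage cell, while osteoprotegerin or OPG (Tnfrsf11b), a secreted decoy receptor, catches RANKL before it gets there. RANK signalling, helped by immunoreceptors such as OSCAR (Oscar), switches on NFATc1 (Nfatc1), the master transcription factor of the osteoclast. NFATc1 targets include the fusion proteins DC-STAMP (Dcstamp) and OC-STAMP (Ocstamp), the beta chain of the vitronectin receptor that anchors the cell to bone (Itgb3), and the enzymes TRAP (Acp5) and cathepsin K (Ctsk), the protease that cuts bone collagen.

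The Tet enzymes oxidise methylated cytosines in CG dinucleotides, so the stretches of 250 bases before the annotated start of the ligand, the receptor and both enzymes are shown, with each CG in capitals. No methylation was measured in these libraries. RefSeq (GRCm38.p6) gave windows for 5 of the 10 genes, Tnfsf11, Tnfrsf11a, Acp5, Ctsk and Oscar, with 3 alternative starts for Acp5, of which the outermost is printed. Sequences run 5′ to 3′ on the strand of the gene.
Tnfsf11, chr14:78308044-78308293, minus strand: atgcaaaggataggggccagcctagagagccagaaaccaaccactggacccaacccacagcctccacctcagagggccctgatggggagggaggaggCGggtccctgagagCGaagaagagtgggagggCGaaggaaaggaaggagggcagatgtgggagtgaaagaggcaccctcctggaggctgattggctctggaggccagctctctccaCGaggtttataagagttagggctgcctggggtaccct
Tnfrsf11a, chr1:105780473-105780722, plus strand: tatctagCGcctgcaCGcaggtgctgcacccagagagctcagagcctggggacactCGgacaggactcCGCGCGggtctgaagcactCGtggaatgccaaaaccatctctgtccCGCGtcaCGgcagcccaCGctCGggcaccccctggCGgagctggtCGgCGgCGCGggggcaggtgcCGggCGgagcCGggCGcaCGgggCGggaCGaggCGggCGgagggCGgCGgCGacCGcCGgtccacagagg
Acp5, chr9:22135747-22135996, minus strand: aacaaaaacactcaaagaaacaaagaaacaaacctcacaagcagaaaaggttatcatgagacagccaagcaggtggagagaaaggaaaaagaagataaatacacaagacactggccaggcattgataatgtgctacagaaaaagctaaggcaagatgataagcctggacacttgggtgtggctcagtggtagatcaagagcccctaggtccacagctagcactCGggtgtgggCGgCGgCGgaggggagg
Ctsk, chr3:95498960-95499209, plus strand: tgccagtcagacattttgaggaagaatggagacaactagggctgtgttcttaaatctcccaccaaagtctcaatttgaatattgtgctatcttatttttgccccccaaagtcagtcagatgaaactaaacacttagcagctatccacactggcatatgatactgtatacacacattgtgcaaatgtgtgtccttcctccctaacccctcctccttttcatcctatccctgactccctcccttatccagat
The receptor window held 31 CG dinucleotides, more than 94.8% of the 32851 RefSeq windows of the same length, whose median was 6. The ligand window and the outermost Acp5 window held 4 each, the other Acp5 windows 12 and 5, the Oscar window 2 and the Ctsk window 0. Motifs were searched on both strands in the 7 windows of these genes. The AP-1 motif TGANTCA, present in 6.75% of all windows, and the RUNX motif TGTGGT, present in 14.0%, were in 0 of the 7. The NFAT motif GGAAA was in 5 (55.6% of all windows) and the MITF motif CANGTG in 5 (39.5% of all windows), and no matches of different motifs overlapped. All 3 Acp5 windows held both motifs, so that gene is counted 3 times in each number. The other windows were those of Tnfsf11 and Oscar for NFAT and of Tnfrsf11a and Oscar for MITF.

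The values are RPKM, reads on a gene per kilobase of its length, scaled to the number of mapped reads, so levels can be set side by side between genes. The table lists no read totals. From the step size of low values in genes with 1 transcript, the libraries held an estimated 32400000 to 38600000 reads. The targeted gene Tet2 stood at 2.57 to 4.08 RPKM in the controls and at 0.202 to 0.358 RPKM in the siRNA libraries, and Tet1 at 0.032 to 0.098 RPKM against 0.001 to 0.01 RPKM, where 0.001 is the lowest value listed. The label of mesenchymal stem cells was checked against markers. Of 18 macrophage markers 18 were tested, which takes a mean of at least 0.1 RPKM. Lyz2, C1qb and C1qc were the most abundant (4439, 1242 and 1131 RPKM on average in the control libraries) and Cx3cr1 the rarest (0.487 RPKM). Of 20 stromal markers 17 were tested, with Sparc at 557.0, Fn1 at 492.0 and Col1a1 at 488.4 RPKM in the controls. Lum, Thy1 and Lepr were at 0.0107, 0.061 and 0.0627 RPKM, and Nt5e and Mcam at 0.911 and 1.31 RPKM. The libraries thus hold RNA of stromal and of macrophage-lineage kind, on which both sides of the RANKL axis are read.

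In the control cultures the receptor was the most abundant of the 10 genes and the ligand among the rarest. Mean RPKM ran from 27.0 for Tnfrsf11a through 10.6 for Ctsk, 10.1 for Nfatc1, 4.60 for Tnfrsf11b, 3.71 for Acp5, 3.13 for Itgb3, 0.825 for Tnfsf11, 0.178 for Ocstamp and 0.13 for Oscar to 0.0277 for Dcstamp. The ranges of the 3 libraries overlapped between Ctsk and Nfatc1, between Tnfrsf11b and Acp5 and between Acp5 and Itgb3, and other neighbours in this order were apart. After the knockdown the order was Tnfrsf11a, Ctsk, Nfatc1, Acp5, Itgb3, Tnfrsf11b, Dcstamp, Tnfsf11, Ocstamp and Oscar. Acp5 then overlapped with Nfatc1, and the ranges of the last 3 genes overlapped from each to the next.

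**Figure D1:**
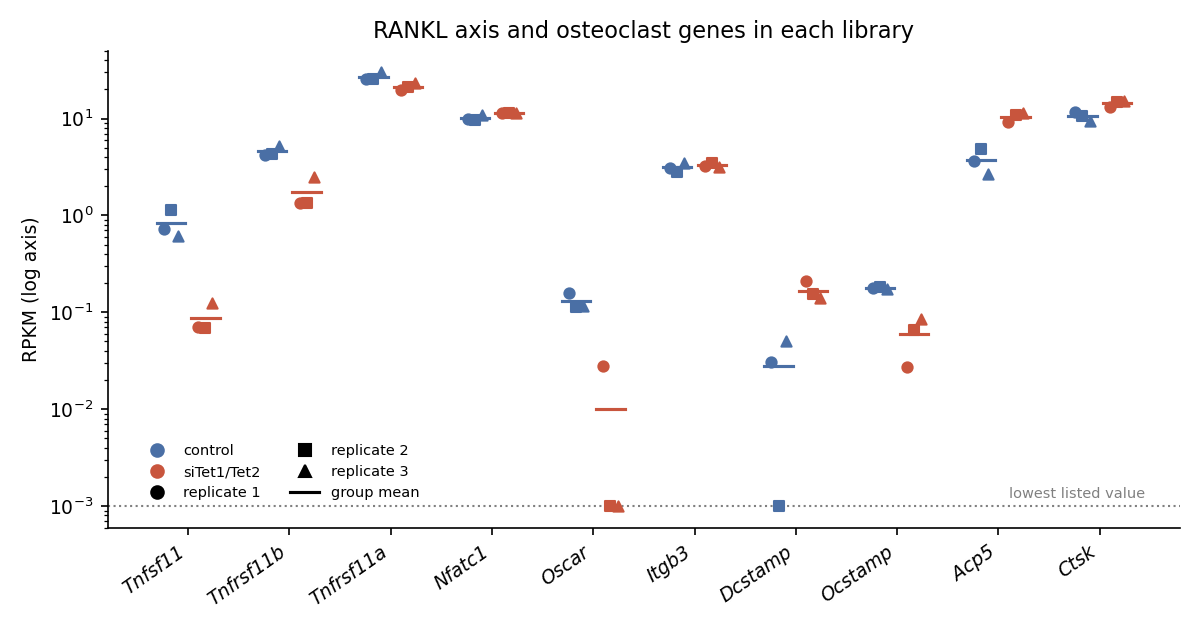
RPKM of the 10 genes on a log axis in the 3 control libraries (blue) and the 3 siTet1/Tet2 libraries (red), 1 point per library, with lines at the group means and a dotted line at the lowest listed value, 0.001. Tnfsf11, Tnfrsf11b and Acp5 stand apart between the groups, Itgb3 overlaps, and Oscar, Dcstamp and Ocstamp are all under 0.3 RPKM.

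After knockdown of Tet1 and Tet2 the ligand and its decoy were lower, and the genes of the osteoclast side went both ways or did not pass. Of the 8 genes tested (mean of at least 0.1 RPKM), 5 were called at a Benjamini-Hochberg adjusted p below 0.05 in limma, or 62.5% against 44.5% of all 13266 genes tested. The 3 lower genes were the ligand Tnfsf11, the decoy Tnfrsf11b and, to a lesser extent, the receptor Tnfrsf11a, in a background of 29.8% lower. The 2 higher genes were the enzymes Acp5 and Ctsk, in a background of 14.7% higher. The thresholds of the study, a raw p below 0.05 plus a more than 2-fold change, were applied here on the log2(RPKM + 1) scale. With them 1 gene was lower (Tnfrsf11b, background 5.63%) and 1 was higher (Acp5, background 0.95%). That scale shrinks low genes, and as a ratio of mean RPKM Tnfsf11 was 9.34-fold lower. The groups did not overlap in 7 of the 8 tested genes, against 55.7% of all genes tested. With so large a background, the count of called genes is not in itself a result about these genes, and the sizes below carry the description.

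The ligand had the largest relative decrease among the tested genes of the axis. Tnfsf11, on chromosome 14 of GRCm38 (78277445 to 78308043, minus strand, 1 annotated transcript of 5 exons), was at 0.727, 1.129 and 0.62 RPKM in the controls and at 0.07, 0.069 and 0.126 RPKM in the siRNA libraries. Every control library was above every siRNA library, and control replicate 2 was the highest. Group means were 0.825 ± 0.268 RPKM (SD, n = 3) and 0.0883 ± 0.0326 RPKM (SD, n = 3), a 9.34-fold difference. At the estimated depth these are about 60.8, 83.8 and 44.9 reads against 6, 5.9 and 10. The log2 fold change on the log2(RPKM + 1) scale was -0.74 (limma, SE 0.10, adjusted p = 0.000675). That scale shrinks a gene this low, and with a pseudocount of 0.01 the log2 fold change was -3.09.

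The decoy fell less than the ligand. Tnfrsf11b, on chromosome 15 (54250619 to 54278484, minus strand, 1 annotated transcript of 5 exons), was at 4.24, 4.28 and 5.26 RPKM in the controls and at 1.34, 1.36 and 2.48 RPKM in the siRNA libraries. The groups did not overlap, and replicate 3 was the highest in both. Means were 4.60 ± 0.578 RPKM (SD, n = 3) and 1.73 ± 0.652 RPKM (SD, n = 3), a 2.66-fold difference with a log2 fold change of -1.06 (limma, SE 0.16, adjusted p = 0.00112).

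The ratio of ligand to decoy within a library does not depend on how libraries are scaled. RANKL over OPG, as a ratio of RPKM, was 0.171, 0.264 and 0.118 in the control libraries and 0.0521, 0.0509 and 0.0508 in the siRNA libraries. The control libraries differed among themselves more than 2-fold, whereas the siRNA libraries were nearly equal. The siRNA ratios rest on an estimated 6, 5.9 and 10 reads of Tnfsf11, so their small spread does not measure how precise they are. On the log2 scale the mean ratio went from -2.52 ± 0.58 (SD, n = 3) to -4.29 ± 0.02 (SD, n = 3), so that OPG transcripts were 5.73 times RANKL transcripts in the controls and 19.5 times after the knockdown (geometric means). The difference was -1.77, a 3.40-fold lower ratio (exact two-sided permutation test, p = 0.1, the smallest that 3 libraries against 3 can give). No pseudocount was used for this ratio, as neither gene stood at the lowest listed value in any library. The size and direction depended on the pseudocount: with 0.1 RPKM added to both genes the difference was -0.86, and with 1 RPKM added it was 0.32 in the other direction. An added 1 RPKM is above every siRNA value of Tnfsf11 (at most 0.126 RPKM), so the sign found with it cannot decide the direction.

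**Figure D2:**
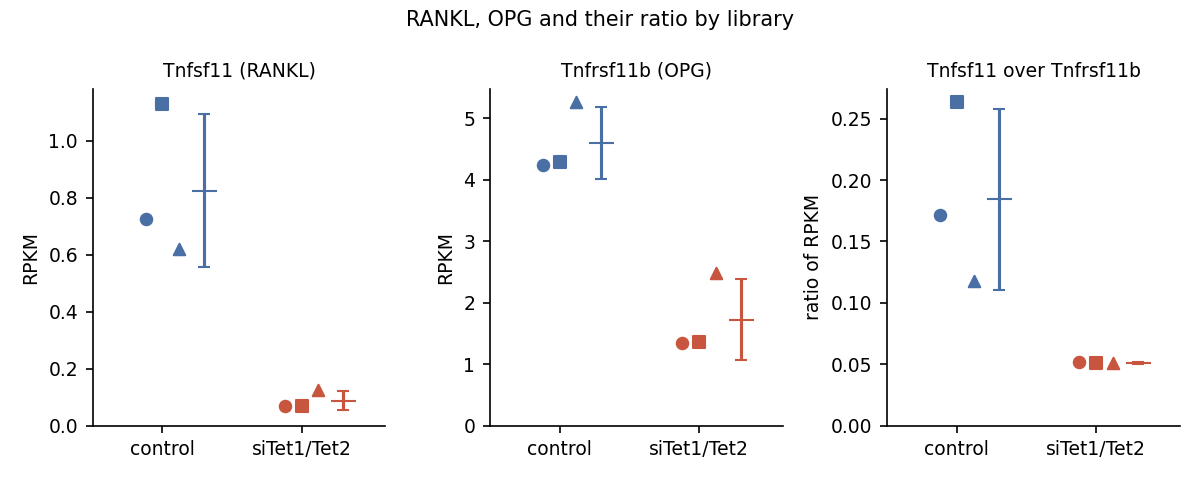
RPKM of Tnfsf11 (RANKL) and of Tnfrsf11b (OPG), and the ratio of the former to the latter, in each control and siTet1/Tet2 library (points, 1 per library), with the mean and SD of each group beside them and axes from 0. Both genes are lower in all 3 siTet1/Tet2 libraries, and the ratio is near 0.051 in each of those 3 while it runs from 0.118 to 0.264 in the controls. The ratios in the siTet1/Tet2 libraries rest on an estimated 6, 5.9 and 10 reads of Tnfsf11.

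The stromal markers moved with both genes. Of the 17 tested, 14 were lower, 1 was higher (Vcam1, an adhesion molecule) and 2 were not called. Over all genes tested 29.8% were lower and 14.7% higher. The median log2 fold change was -2.13 against -0.09 over all genes tested. Their summed level was 2302 to 3113 RPKM in the controls and 415 to 761 RPKM in the siRNA libraries, highest in replicate 3 of each group. Fewer stromal cells and less RNA of these genes per stromal cell cannot be told apart in bulk RNA. Set against the mean of the stromal markers in each library with a pseudocount of 1, Tnfsf11 was at 0.94 (adjusted p = 3.65e-05 from limma). Tnfrsf11b was at 0.62 on the same log2 scale (adjusted p = 0.00405 from limma). That mean itself changed by -1.68. Tnfsf11, at 0.825 RPKM in the controls, could not fall so far with 1 RPKM added, so its sign there cannot decide the direction. With a pseudocount of 0.01, a fit added after seeing the data, Tnfsf11 was lower (log2 fold change -1.23, standard error 0.44, adjusted p = 0.00640 from limma). Tnfrsf11b was not lower there (0.40, standard error 0.25, adjusted p = 0.119 from limma). The relative change of Tnfsf11 thus turned direction with the pseudocount, while that of Tnfrsf11b stayed above 0. In the same fits the median of all genes tested was 1.59, and 1.75 with a pseudocount of 0.01, so both genes lay below the typical gene. Lymphocytes can also make RANKL. Of 10 lymphocyte markers 2 were tested and both were higher (14.7% of all genes tested were), Cd4 from 2.56 to 8.06 RPKM and Cd79b from 0.533 to 1.14 RPKM. The T-cell genes Cd3g and Trac stood at the lowest listed value in all 6 libraries, and Cd3e and Cd3d averaged at most 0.0097 RPKM in either group.

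**Figure D3:**
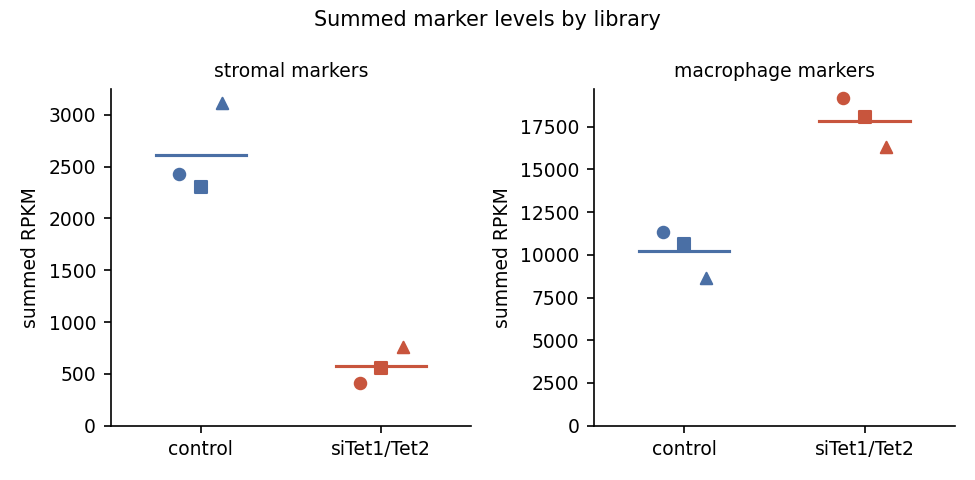
Summed RPKM of the 20 stromal markers (left) and the 18 macrophage markers (right) in each library, with lines at the group means and axes from 0. Stromal sums are 415 to 761 in the siTet1/Tet2 libraries against 2302 to 3113 in the controls, and macrophage sums, to which Lyz2 adds most, 16305 to 19176 against 8633 to 11329.

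The receptor changed less than the ligand and the decoy. Tnfrsf11a, on chromosome 1 (105780718 to 105847981, plus strand), was at 25.3, 25.8 and 29.9 RPKM in the controls and at 19.7, 20.9 and 23.2 RPKM in the siRNA libraries. The groups did not overlap, with a mean of 27.0 ± 2.52 RPKM (SD, n = 3) against 21.3 ± 1.75 RPKM (SD, n = 3) and a log2 fold change of -0.33 (limma, SE 0.09, adjusted p = 0.0161). The call was lost with median ratio scaling (-0.22, adjusted p = 0.0579 from limma), with quantile normalization (-0.22, adjusted p = 0.0770 from limma) and without siRNA replicate 1 or 2 (adjusted p = 0.0656 and 0.0588 from limma). Relative to the macrophage markers the decrease was larger (-0.50, adjusted p = 0.003 from limma), in a fit where the median of all genes tested was -0.26. At 21.3 RPKM the receptor remained the most abundant of the 10 transcripts.

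The master regulator stayed near its control level. Nfatc1, on chromosome 18 (80606205 to 80713071, minus strand), was at 9.82, 9.64 and 10.9 RPKM in the controls and at 11.4, 11.5 and 11.5 RPKM in the siRNA libraries. All siRNA values were above all control values, by a log2 fold change of 0.16 (standard error 0.07) that did not pass (adjusted p = 0.111 from limma). It passed with quantile normalization (0.32, adjusted p = 0.00806 from limma), with median ratio scaling (0.27, adjusted p = 0.0169 from limma) and without control replicate 3 (0.21, adjusted p = 0.0378 from limma), and was -0.01 relative to the macrophage markers. The annotation has AC123818.1 on the opposite strand within Nfatc1 (80705190 to 80707760), and reads from the pair could not be told apart where strand was not used.

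The coreceptor Oscar, an immunoreceptor that signals through the FcR gamma chain, was barely detected. It lies on chromosome 7 (3609813 to 3616157, minus strand) and was at 0.159, 0.114 and 0.117 RPKM in the controls, about 10.9, 6.9 and 6.9 reads, and at 0.028, 0.001 and 0.001 RPKM in the siRNA libraries, about 2 reads in replicate 1 and the lowest listed value in the other two. The groups did not overlap, but the mean was under the minimum for testing. Without that minimum Oscar had an adjusted p of 0.00208 from limma (log2 fold change -0.16). Itgb3, which pairs with the alpha V chain as the vitronectin receptor, lies on chromosome 11 (104608000 to 104670476, plus strand). Its values were 3.09, 2.80 and 3.49 RPKM in the controls and 3.26, 3.50 and 3.18 RPKM in the siRNA libraries. They overlapped, with a log2 fold change of 0.07 (limma, SE 0.09, adjusted p = 0.597), although quantile normalization gave 0.26 (adjusted p = 0.0418 from limma). Its partner chain Itgav was at 82.0 and 80.8 RPKM on average (adjusted p = 0.943 from limma), so neither chain passed.

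The fusion genes had opposite differences at very low levels. Dcstamp, on chromosome 15 (39745930 to 39760938, plus strand), was at 0.031, 0.001 and 0.051 RPKM in the controls, about 2.3, 0 and 3.3 reads, and at 0.208, 0.154 and 0.14 RPKM in the siRNA libraries, about 16, 11.8 and 9.9 reads. All 3 siRNA values were above all control values. Its mean was just under the minimum for testing, and without the minimum it had a log2 fold change of 0.18 (adjusted p = 0.00411 from limma). Leaving out any 1 control library lifted it over the minimum, with an adjusted p of 0.0381 to 0.0999 from limma. Ocstamp, on chromosome 2 (165393760 to 165400405, minus strand), went the other way, at 0.177, 0.184 and 0.173 RPKM in the controls and 0.027, 0.066 and 0.086 RPKM in the siRNA libraries. These are about 24.2, 22.3 and 20.5 reads against 3.8, 9.3 and 11.2, and the groups did not overlap. Its log2 fold change of -0.15 (standard error 0.06) just missed the threshold (adjusted p = 0.0548 from limma), and with pseudocounts of 0.1 and 0.01 it passed at -0.82 (adjusted p = 0.0280 from limma) and -1.54 (adjusted p = 0.0376 from limma). Relative to the macrophage markers Ocstamp passed as well (-0.33, adjusted p = 0.00691 from limma). No library held more than about 24.2 reads of either gene.

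The 2 osteoclast enzymes rose, TRAP far more than cathepsin K. Acp5, on chromosome 9 (22126727 to 22135711, minus strand), was at 3.61, 4.88 and 2.66 RPKM in the controls and at 9.11, 10.8 and 11.4 RPKM in the siRNA libraries. The groups were well apart, with means of 3.71 ± 1.11 RPKM (SD, n = 3) and 10.4 ± 1.19 RPKM (SD, n = 3), a 2.81-fold difference. The log2 fold change was 1.30 (limma, SE 0.17, adjusted p = 0.000439). The annotation puts the gene 6530413G14Rik across Acp5 on the opposite strand (22117328 to 22137756), and since the use of strand in the counting is not given, reads from the pair could not be told apart. Ctsk, on chromosome 3 (95499256 to 95509362, plus strand, 1 annotated transcript of 8 exons), was at 11.7, 10.7 and 9.43 RPKM in the controls and at 13.1, 14.7 and 15.0 RPKM in the siRNA libraries. Here too the groups did not overlap, but the rise was 1.35-fold, between means of 10.6 ± 1.12 RPKM (SD, n = 3) and 14.3 ± 1.04 RPKM (SD, n = 3), and a log2 fold change of 0.40 (limma, SE 0.09, adjusted p = 0.00921).

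**Figure D4:**
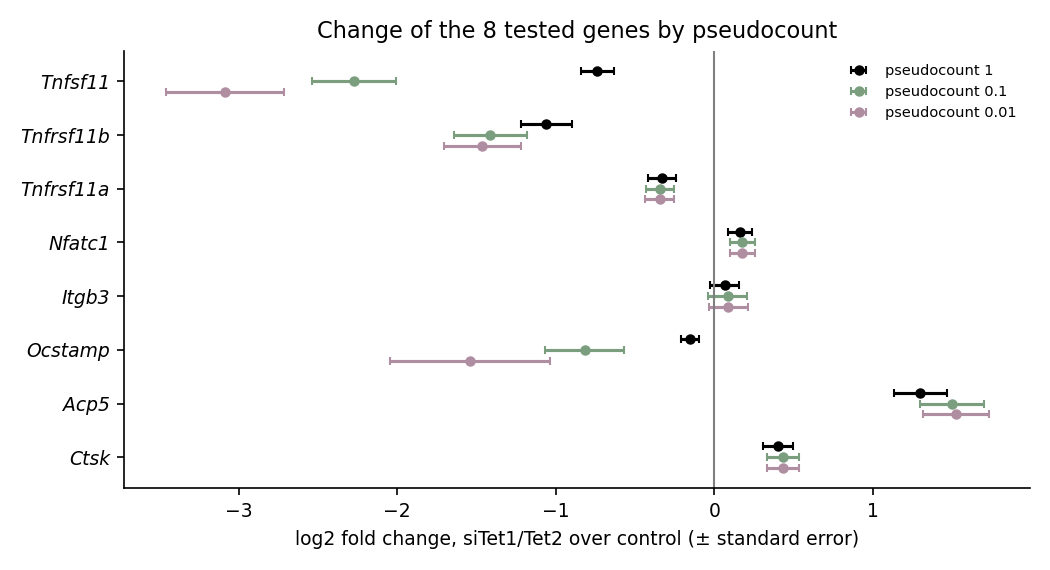
Log2 fold change (siTet1/Tet2 over control) of the 8 tested genes with its standard error from limma, with pseudocounts of 1 (black), 0.1 (green) and 0.01 (mauve). Tnfsf11 goes from -0.74 to -3.09 and Ocstamp from -0.15 to -1.54 as the pseudocount shrinks, while Tnfrsf11a, Nfatc1, Itgb3 and Ctsk hardly move.

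Macrophage markers also differed between the groups, in both directions. Of the 18 markers, 9 were higher, 3 were lower (Fcgr1, Msr1 and Mrc1) and 6 were not called. Over all genes tested 14.7% were higher and 29.8% lower. The median log2 fold change was 0.23 against -0.09 over all genes tested. Single markers ranged from Fcgr1 at -1.93 to Lyz2 at 1.36, beside 1.30 for Acp5. Their summed level was 8633 to 11329 RPKM in the controls and 16305 to 19176 RPKM in the siRNA libraries, with Lyz2 the largest single part. Set against the mean of these markers in each library, Acp5 was still higher (1.13 on the log2 scale, adjusted p = 0.000136 from limma). For Ctsk the difference shrank to 0.23 (adjusted p = 0.0481 from limma), and with a pseudocount of 0.01 it no longer passed (0.22, adjusted p = 0.0672 from limma).

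Most of the listed regulators of the ligand and the decoy were lower as well. Which cells their RNA came from was not tested. In a list of 26 genes that regulate RANKL and OPG in stroma or act beside them, 25 were tested, 17 were lower, 4 were higher and 4 were not called, with a median log2 fold change of -0.53 against -0.09 over all genes tested, of which 29.8% were lower. On the log2(RPKM + 1) scale the largest decreases were in Vdr, the vitamin D receptor, from 5.44 to 0.573 RPKM (log2 fold change -2.03, adjusted p = 6.76e-06 from limma), Osmr, the oncostatin M receptor, from 6.95 to 1.06 RPKM (-1.95), and Csf1, which encodes the macrophage growth factor M-CSF, from 230.7 to 62.0 RPKM (-1.92, adjusted p = 0.00013 from limma). The siRNA libraries had Csf1 at 44.7, 57.1 and 84.4 RPKM, and no control library was under 219.4 RPKM. Among other known inducers of RANKL, named after their values were seen, Pth1r, the parathyroid hormone receptor, fell from 4.13 to 1.35 RPKM and Il6, the gene of interleukin 6, from 2.79 to 0.175 RPKM. As a ratio of means the order was another one, with Il6 16-fold, Il1r1 13.3-fold and Runx2 12.5-fold lower, against 9.5-fold for Vdr. The 4 higher genes were the prostaglandin receptor Ptger2 (2.10 to 4.96 RPKM), Ctnnb1, the gene of beta-catenin (184.0 to 294.5 RPKM), Il11ra1 (16.1 to 22.7 RPKM) and Tgfb1 (164.2 to 183.3 RPKM). Il1b was too low to be tested.

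Downstream of the receptor the called genes went both ways. Of 31 genes of RANK signalling and costimulation, 30 were tested, 10 were higher, 5 were lower and 15 were not called, with a median log2 fold change of 0.10. The number called, 15 of 30, was near the 44.5% of all genes tested and is not a result about this list, although 14.7% of all genes were higher and 29.8% lower. On the log2(RPKM + 1) scale the largest increases were in Tyrobp, which encodes the adaptor DAP12 (465.6 to 1164 RPKM, log2 fold change 1.35, adjusted p = 0.000578 from limma), Prdm1, which encodes the repressor Blimp1 (2.17 to 4.54 RPKM, 0.81) and the kinase gene Syk (46.8 to 78.8 RPKM, 0.74). The 5 lower genes were Src, the kinase needed for the ruffled border (11.8 to 5.66 RPKM, -0.94), the IKK kinase gene Chuk (27.6 to 20.5 RPKM, -0.41), the calcineurin subunits Ppp3ca (44.5 to 35.9 RPKM, -0.30) and Ppp3cb (17.4 to 14.9 RPKM, -0.21), and Fcer1g, the FcR gamma chain through which OSCAR signals (618.3 to 512.9 RPKM, -0.27). The RANK adaptor Traf6 was at 5.55 and 6.07 RPKM (adjusted p = 0.342 from limma), and Camk4 was too low to be tested. Without control replicate 2, siRNA replicate 1 or siRNA replicate 2, the number of called genes fell from 15 to 9, 7 and 9.

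Among the brakes on osteoclast formation more genes were higher than lower. Of 12 genes, all tested, 5 were higher, 2 were lower and 5 were not called, with a median log2 fold change of 0.13, against the same shares over all genes tested (44.5% called, 14.7% higher, 29.8% lower). The higher genes included the phosphatase genes Inpp5d (72.0 to 104.1 RPKM) and Ptpn6 (104.2 to 124.7 RPKM), Id2 (222.9 to 283.0 RPKM) and the inhibitory receptor gene Pirb (74.0 to 90.1 RPKM). The lower genes were Id1 (96.4 to 43.7 RPKM, log2 fold change -1.12) and Tnfaip3, which encodes A20 (12.2 to 9.35 RPKM, -0.34). Without siRNA replicate 1 or siRNA replicate 2 the number called fell from 7 to 4 each time.

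Among the acid-secreting, resorption and fusion genes more were higher than lower. Of 21 genes, 20 were tested, 10 were higher, 3 were lower and 7 were not called, with a median log2 fold change of 0.17. Over all genes tested, 44.5% were called, 14.7% higher and 29.8% lower. On the log2(RPKM + 1) scale the largest increases were in subunits of the proton pump, Atp6v0d2 (57.6 to 139.4 RPKM, log2 fold change 1.26, adjusted p = 7.2e-06 from limma) and Atp6v1b2 (276.1 to 403.6 RPKM, 0.55), and in Plekhm1, a gene of lysosome transport (40.1 to 51.6 RPKM, 0.36). The lower genes were Mmp14, a membrane-bound collagenase (66.2 to 41.3 RPKM, -0.67), Slc9b2 (1.18 to 0.386 RPKM, -0.64) and Cd47 (91.8 to 66.6 RPKM, -0.46). Some genes of the mature osteoclast were low in both groups. Calcr, the calcitonin receptor gene, was at 0.001 to 0.008 RPKM in all 6 libraries, and Mmp9 at 0.461 to 0.662 RPKM in the controls and 0.36 to 0.399 RPKM after the knockdown (adjusted p = 0.112 from limma). Car2, the carbonic anhydrase that supplies protons, was at 0.001, 0.034 and 0.001 RPKM in the controls and 0.313, 0.118 and 0.304 RPKM after the knockdown (adjusted p = 0.0139 from limma), the largest ratio of means in this list at 20.4-fold, from control values at or near the lowest listed. Mmp9, Calcr and Car2 were named after their values were seen.

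**Figure D5:**
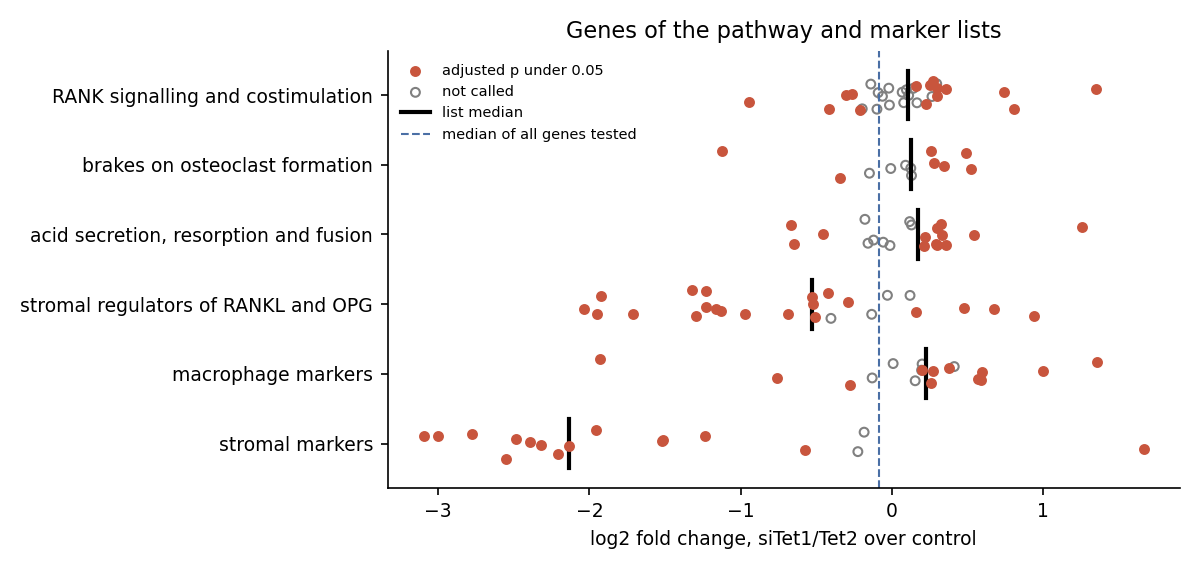
Log2 fold change (siTet1/Tet2 over control) of each tested gene in 4 pathway lists and in the macrophage and stromal marker lists, filled where the adjusted p from limma was under 0.05, with a bar at each list's median and a dashed line at the median of all genes tested, -0.09. The stromal regulators of RANKL and OPG (median -0.53) and the stromal markers (-2.13) lie to the left, and the 3 osteoclast-side lists have medians of 0.10 to 0.17.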

How the data were processed

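RNA-seq was examined in 6 libraries of BMMSCs, 3 control and 3 treated with Tet1 and Tet2 siRNAs. The authors trimmed adaptors, mapped paired-end reads to GRCm38 and estimated abundance with DNASTAR Lasergene v15.0. They deposited linear RPKM (FPKM in the methods), 1 column per library, beside a p-value of their own comparison, which was not used. Annotation release, strand use and the treatment of multi-mapping reads are not given in the sources used here.

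The highest row was kept for symbols with several rows. Two-sided tests were run on log2(RPKM + 1) of genes averaging 0.1 RPKM or more, using limma 3.58.1 under R 4.3.3 (eBayes with trend, Benjamini-Hochberg adjustment over 13266 genes). The script was tested on simulated data. Ratios were compared in scipy 1.17.1. Depth was taken, in Python 3.11.15, as the total at which low RPKM of genes with 1 transcript in GENCODE M21 came closest to whole reads. Between 52.0% and 56.4% lay within 0.1 of a whole number there, against a median of 17.2% to 17.9% over all depths tried. It is an estimate, so no count test was run.

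The genes and lists were chosen with earlier results of these data known. Named genes were the 10 members, the 3 largest called increases and decreases of each pathway list (all, where 5 or fewer), and the 3 most abundant markers of each cell type. A result that this rule names is not reported here. One listed gene, Adgre1, was matched through an older symbol.

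Replicate numbers are shared between groups in the labels. Deviations from the group means correlated at 0.149, 0.117 and 0.462 between libraries numbered 1, 2 and 3. Each exceeds 0.1, and a fit with the number as a block was therefore added. No source gives the meaning of a number, and the mismatched pair of control 1 and siRNA 2 correlated at 0.332. The alternatives were other pseudocounts, filters and scalings, eBayes without trend, the replicate block, the sum of rows, and each library left out.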

Additional observations from a re-analysis of the deposited data

How the results depend on the processing

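Leaving aside the centring on marker lists and the thresholds of the study, Tnfsf11, Tnfrsf11b, Acp5 and Ctsk kept their calls and directions in all alternatives run. Their highest adjusted p was 0.00480, 0.00688, 0.00349 and 0.0417 from limma. Tnfsf11 and Ctsk did not pass the thresholds of the study with the fold change taken on the log2(RPKM + 1) scale. By the ratio of mean RPKM, Tnfsf11 was over 2-fold lower (9.34-fold), and Ctsk stayed under 2-fold (1.35-fold). Tnfsf11 fails a minimum of 1 RPKM and has no value there. With the replicate block 5 genes were called and no call among the 10 genes changed. The number called, 5, went to 8 without a filter on low values, where 10 genes were tested. It went to 2 with the thresholds of the study on the log2(RPKM + 1) scale. Leaving out one library gave 4 to 7. Centred on the stromal markers, Tnfsf11 turned to 0.94 and Tnfrsf11b to 0.62 on the log2 scale. With a pseudocount of 0.01 they were at -1.23 and 0.40. The fits centred on marker lists with that pseudocount were added after seeing the data. In the stromal fits the median of all genes tested was 1.59 and, with a pseudocount of 0.01, 1.75, so the values above 0 were still below the typical gene. The RANKL to OPG difference of -1.77 moved to -0.86 and 0.32 with 0.1 and 1 RPKM added to both genes, and was -2.05 to -1.47 with one library left out. Leaving out one library gave 7 to 14 called genes in RANK signalling, 4 to 6 among the brakes, 10 to 14 in resorption and 18 to 21 among the stromal regulators. Apart from the centring on marker lists, the median of all genes, -0.09, moved by over 0.1 with quantile normalization, to 0.06, so small changes are relative to the scaling. Depth limits Oscar, Dcstamp and Ocstamp, where 1 read is worth about 0.015, 0.0137 and 0.0075 RPKM.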

Other observations

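Over the 6 libraries, the genes of at least 1 RPKM whose log2(RPKM + 1) ran most like Tnfsf11 were Atg3 (Pearson r = 0.998), Prpf4 (0.997) and Gtf2f1 (0.993). For Tnfrsf11b they were Enah (0.999), Myom1 (0.999) and Sav1 (0.999), for Acp5 Abcg3 (0.997), Ikbkg (0.996) and Ankzf1 (0.996), and for Ctsk Sla (0.997), Trim65 (0.995) and Scamp5 (0.992). Likeness of shape is not likeness of size, since Atg3 went from 46.8 to 38.7 RPKM while Tnfsf11 went from 0.825 to 0.0883 RPKM. The points share the group difference, and r was over 0.95 with 455 of 11050 genes for Tnfsf11 and with 1377, 390 and 178 of 11049 for Tnfrsf11b, Acp5 and Ctsk.

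Itgb3 is also a gene of megakaryocytes and platelets. Of 7 markers of that lineage 5 were tested, 3 were higher (Pf4, Vwf and Ppbp), 1 was lower (Gp1bb) and 1 was not called (Itga2b). Over all genes tested 14.7% were higher and 29.8% lower. Pf4 went from 235.1 to 603.3 RPKM, Vwf from 1.93 to 6.10 RPKM and Ppbp from 0.188 to 0.864 RPKM, while Itga2b, the partner of Itgb3 in platelets, was at 0.098 and 0.102 RPKM. Of 7 dendritic cell markers 2 were tested, and Itgax was at 7.51 and 9.57 RPKM (adjusted p = 0.0351 from limma), Zbtb46 at 0.483 and 0.301 RPKM (adjusted p = 0.0508 from limma) and Xcr1, untested, at 0.0877 and 0.0303 RPKM. Of the other dendritic cell markers, Ccr7 stood at the lowest listed value in every library, and Flt3, Siglech and Clec9a averaged at most 0.033 RPKM in either group. In the lymphocyte list Ms4a1 was at 0.0377 and 0.022 RPKM.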
